A study of Mus musculus with 8 samples.

Results

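The 9 Toll-like receptors Tlr1 to Tlr9 and the co-receptor Ly96, which encodes MD-2, were found by symbol among the 248 genes measured in conjunctiva, so 10 genes are described. The RNA came from 4 mice given tributyrin, a triglyceride that releases butyrate, and from 4 mice given phosphate-buffered saline as vehicle, and both groups were under desiccating stress (DS). All were female C57BL/6J mice labelled 8 weeks of age, and no genetic change is given in the labels. For 5 days each mouse was kept in a dry, drafty environment, was injected 4 times a day with scopolamine, which blocks tear secretion, and was gavaged daily with 100 µl of 0.5 mM tributyrin or of vehicle. Each label names 1 mouse, and mice are numbered 1 to 4 within a group by name only. An unstressed group was not analysed here, so every level below is a level under stress.

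Toll-like receptors recognise molecules of microbes and of damaged cells and are a first sensor of innate immunity at mucosal surfaces such as the ocular surface. TLR1, TLR2, TLR4, TLR5 and TLR6 sit at the cell surface, while TLR3, TLR7, TLR8 and TLR9 read nucleic acids inside endosomes. Most signal through the adaptor MyD88 to NF-κB and MAP kinases, TLR3 signals through TRIF, and TLR4 uses both. MD-2 is a secreted protein that binds lipopolysaccharide and holds it to TLR4.

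Values are normalized counts. The nCounter platform counts barcoded probes bound to each transcript without amplification, with 1 probe pair per transcript, so a value is per probe and does not grow with transcript length. Probes differ in how well they bind, so an order between genes is an order of probe counts. The recovered panel totals were 742068 to 1344723 counts in tributyrin mice and 1035041 to 1494519 counts in vehicle mice, and the factors that scaled them to the reference genes were 0.838 to 1.56 in tributyrin mice and 0.741 to 1.08 in vehicle mice. Tributyrin mice 1 and 4 had the lowest totals and the largest factors, 1.56 and 1.24. None of the 10 markers listed for conjunctival epithelium and goblet cells was on the panel, so the labelled tissue could not be checked by them.

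Promoter sequences are shown for Tlr2, Tlr3 and Tlr9, as an example of a surface receptor, of the most abundant endosomal receptor and of the member with the smallest p. They are RefSeq sequences of build GRCm38.p6, from 250 bases before to 50 bases after the start, at chr3:83841559-83841858 (minus strand) for Tlr2, chr8:45410331-45410630 (minus strand) for Tlr3 and chr9:106222348-106222647 (plus strand) for Tlr9. Capitals mark every match, on either strand, to an IRF core (AANNGAAA), a PU.1 core (GAGGAA), an AP-1 element (TGANTCA) or the NF-κB consensus.
Tlr2: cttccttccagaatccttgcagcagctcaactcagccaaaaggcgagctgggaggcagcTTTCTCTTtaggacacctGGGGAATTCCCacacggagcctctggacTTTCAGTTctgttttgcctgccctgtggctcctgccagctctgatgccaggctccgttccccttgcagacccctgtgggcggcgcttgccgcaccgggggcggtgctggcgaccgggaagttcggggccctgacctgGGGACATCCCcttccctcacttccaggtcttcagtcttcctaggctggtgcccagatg
Tlr3: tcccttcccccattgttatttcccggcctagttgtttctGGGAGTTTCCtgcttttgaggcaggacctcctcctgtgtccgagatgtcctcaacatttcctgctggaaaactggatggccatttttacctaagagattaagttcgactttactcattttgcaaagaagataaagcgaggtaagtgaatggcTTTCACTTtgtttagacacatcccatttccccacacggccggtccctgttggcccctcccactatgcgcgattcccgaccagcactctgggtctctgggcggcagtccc
Tlr9: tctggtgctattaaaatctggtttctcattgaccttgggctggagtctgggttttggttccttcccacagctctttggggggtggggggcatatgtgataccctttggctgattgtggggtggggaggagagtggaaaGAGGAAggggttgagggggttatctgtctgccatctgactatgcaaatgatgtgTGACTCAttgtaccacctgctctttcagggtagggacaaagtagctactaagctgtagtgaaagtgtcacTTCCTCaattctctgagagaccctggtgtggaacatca
Tlr2 held 2 NF-κB matches that overlap by all but 1 base, beginning 173 and 172 bases before the start, another 8 bases before it, and IRF cores 191 and 145 bases before it. Tlr3 held an NF-κB match 211 bases before the start and an IRF core 59 bases before it. Tlr9 had neither of these motifs in its window and held PU.1 cores 112 bases before and 12 bases after the start and an AP-1 element 58 bases before it. No match of one motif overlapped a match of another in these 3 windows. The table held 9 promoters of 7 members, with no entry for Tlr4, Tlr7 and Ly96. An IRF core was in 4 of the 9, against 23.9% of all 32851 promoters of that length, a PU.1 core in 3 (28.3%), an NF-κB match in 2 (8.46%) and an AP-1 element in 1 (7.81%). Tlr2 is not typical of the surface receptors with an entry: the Tlr5 window held none of these motifs, and no Tlr1 or Tlr6 window held an NF-κB match. A match is a string of letters and was not tested as a binding site.

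The levels fell into 3 steps. Tlr4, Tlr5, Ly96 and Tlr3 averaged 4154, 3168, 1682 and 1512 normalized counts over the 8 mice, Tlr2 and Tlr1 averaged 384 and 354, and Tlr9, Tlr8, Tlr7 and Tlr6 averaged 56.0, 43.6, 37.8 and 34.2. Ranked from the highest of the 248 genes, Tlr4 was at 57 and Tlr5 at 67, Tlr1 at 117, and the 4 lowest members lay between 172 and 204. Between steps no ranges over mice overlapped: Tlr3 was 3.92-fold above Tlr2 and Tlr1 6.34-fold above Tlr9, each in 8 of 8 mice. Within steps, Tlr4 exceeded Tlr5 by 1.31-fold and Tlr5 exceeded Ly96 by 1.88-fold in 8 of 8 mice with separate ranges. Ly96 exceeded Tlr3 by 1.12-fold and Tlr9 exceeded Tlr8 by 1.31-fold, each within 8 of 8 mice although the ranges overlapped. The other neighbours were not separated: Tlr2 was above Tlr1 in 7 of 8 mice, Tlr8 above Tlr7 in 6 and Tlr7 above Tlr6 in 4.

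**Figure D1:**
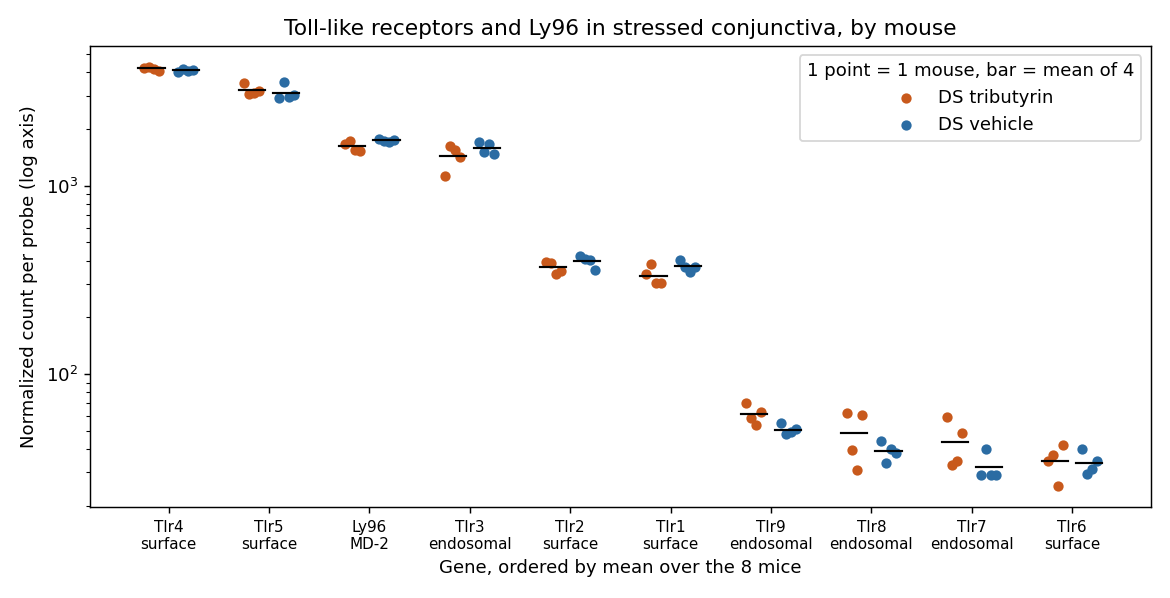
Normalized counts per probe of the 10 members in each mouse on a log axis, with tributyrin mice left and vehicle mice right for each gene and a bar at the mean of 4 mice. The members form 3 steps, with Tlr4, Tlr5, Ly96 and Tlr3 between 1125 and 4284, Tlr2 and Tlr1 between 304 and 424, and Tlr9, Tlr8, Tlr7 and Tlr6 between 25.4 and 70.1.

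Surface receptors and Ly96 together held 85.6% of the summed member counts as a mean over the 8 mice, and the surface receptors alone held 70.8%. The endosomal receptors held 14.4%, nearly all of it Tlr3. Endosomal receptors made up 11.5, 15.2, 14.8 and 14.4% in tributyrin mice 1 to 4, against 16.1, 13.7, 15.8 and 14.1% in vehicle mice 1 to 4, and the groups overlapped. Tlr3 was 85.4, 92.6, 92.8 and 89.2% of the endosomal sum in tributyrin mice 1 to 4, against 93.0, 92.6, 93.4 and 92.6% in vehicle mice 1 to 4, with tributyrin mice 1 and 4 low. In whole tissue, fewer cells that express a gene and less RNA per cell cannot be told apart.

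No member differed between tributyrin and vehicle after adjustment (limma, Benjamini-Hochberg over 248 genes, smallest member adjusted p = 0.303). This was also so for the panel: 0 of 248 genes (0%) passed, and the smallest adjusted p was 0.0516. The panel count depends on the processing, with 6 or 7 genes under 7 of the alternatives, while no member passed in any of them. At an unadjusted p of 0.05, 1 of 10 members passed (Tlr9, higher with tributyrin), against 31 of 248 genes (12.5%). The groups overlapped for all 10 members, while they did not for 18 of 248 genes (7.26%). The members' median log2 fold change, tributyrin over vehicle, was 0.03, with 6 above and 4 below 0, beside 0.06 for the panel, with 177 above and 71 below. Under quantile normalization 4 members lay above and 6 below 0, beside 141 and 99 panel genes. These p-values set the difference between groups against the spread between mice within groups, which limma shares in part over the panel's genes. They cover no other source of variation.

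Tlr4, the lipopolysaccharide receptor, was the most abundant and the steadiest member. It had 4236, 4284, 4199 and 4094 normalized counts in tributyrin mice 1 to 4, against 4042, 4198, 4070 and 4105 in vehicle mice 1 to 4. Means were 4203 ± 80.5 in tributyrin mice and 4104 ± 68.1 in vehicle mice (SD, n = 4 each). The log2 fold change was 0.03 (SE 0.045, limma adjusted p = 0.720), and its 95% interval of -0.07 to 0.14 is the narrowest among the members. Its sign turned under quantile normalization (-0.01).

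Ly96 had 1659, 1740, 1547 and 1536 normalized counts in tributyrin mice 1 to 4, against 1775, 1734, 1707 and 1758 in vehicle mice 1 to 4. Tributyrin mouse 2 lay inside the vehicle range and the other 3 below it. Means were 1621 ± 97.1 in tributyrin mice and 1744 ± 29.6 in vehicle mice (SD, n = 4 each), a log2 fold change of -0.11 (95% interval -0.24 to 0.03, limma adjusted p = 0.469). MD-2 and TLR4 work as a pair, and a ratio of both genes within a mouse is free of any scaling factor. Ly96 over Tlr4 was 0.392, 0.406, 0.368 and 0.375 in tributyrin mice 1 to 4, against 0.439, 0.413, 0.419 and 0.428 in vehicle mice 1 to 4. Every tributyrin mouse was below every vehicle mouse, by -0.14 in mean log2 ratio, and leaving out 1 mouse at a time gave -0.17 to -0.12. This ratio was singled out after its values were seen and carries no test. Of the 45 ratios of 2 members, 5 (11.1%) did not overlap, against 9.32% of all 30628 ratios of 2 panel genes, and the other 4 had Tlr9 as a partner.

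Tlr5, the flagellin receptor, had 3499, 3059, 3118 and 3180 normalized counts in tributyrin mice 1 to 4, against 2924, 3582, 2948 and 3030 in vehicle mice 1 to 4. One mouse of each group, tributyrin mouse 1 and vehicle mouse 2, stood above the other 3. The log2 fold change was 0.05 (95% interval -0.15 to 0.24, limma adjusted p = 0.807).

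TLR2 binds bacterial lipopeptides as a pair with TLR1 or TLR6. Tlr2 had 396, 391, 339 and 353 normalized counts in tributyrin mice 1 to 4, against 424, 408, 401 and 356 in vehicle mice 1 to 4 (log2 fold change -0.10, 95% interval -0.29 to 0.08, limma adjusted p = 0.606). Tlr1 had 341, 383, 304 and 306 in tributyrin mice 1 to 4, against 405, 372, 349 and 372 in vehicle mice 1 to 4 (log2 fold change -0.17, 95% interval -0.38 to 0.04, adjusted p = 0.469). For both genes the lower values belonged mostly to tributyrin mice, and the groups overlapped. Tlr6 had 34.3, 36.9, 25.4 and 42.1 in tributyrin mice 1 to 4, against 39.7, 29.3, 31.1 and 34.6 in vehicle mice 1 to 4 (log2 fold change 0.03, 95% interval -0.36 to 0.41, adjusted p = 0.939). Its sign was not stable under quantile normalization (-0.16) or background subtraction (-0.21). Tlr1 and Tlr6 are adjacent protein-coding genes on chromosome 5. Their counts differed widely: Tlr1 over Tlr6 was 9.95, 10.4, 12 and 7.26 in tributyrin mice 1 to 4, against 10.2, 12.7, 11.2 and 10.8 in vehicle mice 1 to 4. This is a ratio of counts from different probes, and probe specificity between Tlr1 and Tlr6 could not be checked without probe sequences. Tlr1 over Tlr2 lay near 1, at 0.862 to 0.981 in tributyrin mice and 0.869 to 1.05 in vehicle mice.

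Tlr3, the receptor for double-stranded RNA, had 1125, 1636, 1542 and 1429 normalized counts in tributyrin mice 1 to 4, against 1709, 1516, 1671 and 1469 in vehicle mice 1 to 4. Tributyrin mouse 1 was lowest and mouse 4 just below the vehicle range, and tributyrin mice 2 and 3 lay inside it. Means were 1433 ± 222 in tributyrin mice and 1591 ± 117 in vehicle mice (SD, n = 4 each), a log2 fold change of -0.16 (95% interval -0.44 to 0.12, limma adjusted p = 0.597). Leaving out 1 mouse at a time gave a log2 fold change of -0.23 (without tributyrin mouse 2) to -0.05 (without tributyrin mouse 1, which also has the largest scaling factor).

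**Figure D2:**
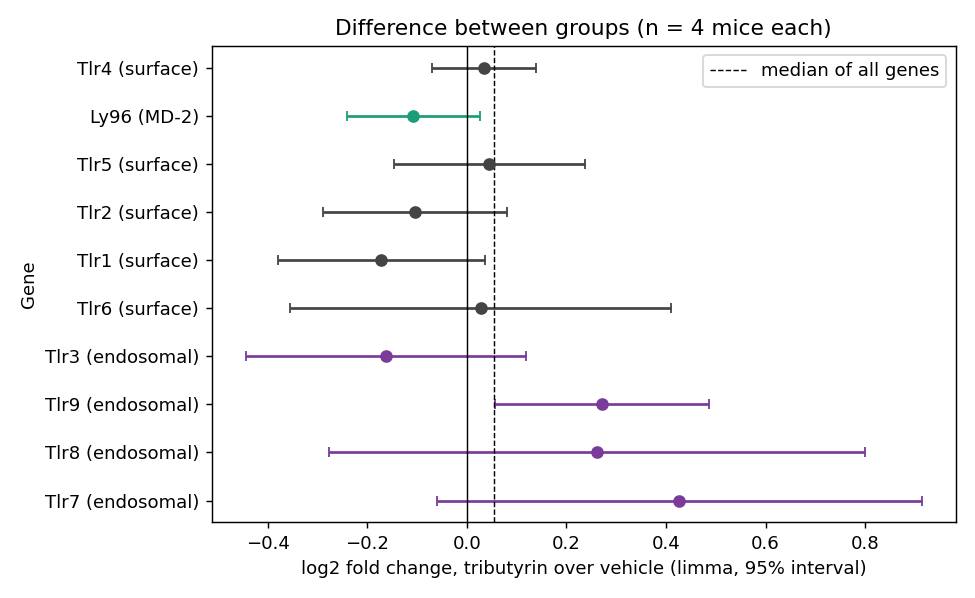
Log2 fold change, tributyrin over vehicle, of each member on the x axis with the limma 95% interval as bar (n = 4 mice each), and the panel median as a dashed line. Of the 10 intervals, that of Tlr9 alone does not include 0, and Tlr4 has the narrowest.

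The other 3 endosomal receptors, Tlr7 (for single-stranded RNA), Tlr9 (for unmethylated CpG DNA) and Tlr8, had their largest values in tributyrin mice. Tlr9 had 70.1, 58.7, 53.5 and 63.2 normalized counts in tributyrin mice 1 to 4, against 55.2, 47.7, 48.9 and 50.8 in vehicle mice 1 to 4. Tributyrin mouse 3 was below vehicle mouse 1 and all other tributyrin mice were above the vehicle mice. Means were 61.4 ± 7.03 in tributyrin mice and 50.7 ± 3.27 in vehicle mice (SD, n = 4 each), a log2 fold change of 0.27 (95% interval 0.06 to 0.49, limma adjusted p = 0.303). The exact Mann-Whitney test, two-sided, gave an unadjusted p = 0.0571 for Tlr9. Tlr7 had 59.2, 32.7, 34.5 and 48.3 in tributyrin mice 1 to 4, against 29.2, 40.1, 28.9 and 29.2 in vehicle mice 1 to 4 (log2 fold change 0.43, 95% interval -0.06 to 0.91, adjusted p = 0.454). Tlr8 had 62.3, 39.4, 30.9 and 60.7 in tributyrin mice 1 to 4, against 43.8, 33.6, 40.0 and 37.9 in vehicle mice 1 to 4 (log2 fold change 0.26, 95% interval -0.28 to 0.80, adjusted p = 0.673). For both, tributyrin mice 1 and 4 were high and tributyrin mice 2 and 3 lay inside the vehicle range, except Tlr8 in mouse 3, which was below it. Tlr7 and Tlr8 are neighbouring protein-coding genes on the X chromosome.

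These members have low counts, and their values are also given before scaling, where they carry the differences in depth between mice. Before scaling, Tlr9 had 45, 70, 59 and 51 counts in tributyrin mice 1 to 4, against 68, 44, 66 and 47 in vehicle mice 1 to 4, and the mean was 56.25 in each group. Tlr7 had 38, 39, 38 and 39 counts in tributyrin mice 1 to 4, against 36, 37, 39 and 27 in vehicle mice 1 to 4. Tlr8 had 40, 47, 34 and 49 counts in tributyrin mice 1 to 4, against 54, 31, 54 and 35 in vehicle mice 1 to 4. Tributyrin mouse 4 was thus the highest of its group before scaling. After scaling, tributyrin mouse 1 was the highest (62.3 normalized counts, against 60.7 in mouse 4). The panel totals of tributyrin mice 1 and 4 were 742068 and 923604 counts, the lowest of the 8, and their factors the largest. Without these mice the log2 fold change was 0.15 for Tlr9, 0.09 for Tlr7 and -0.15 for Tlr8. With the factor as a covariate it was 0.22 for Tlr9 and 0.21 for Tlr7, and under quantile normalization 0.09 for Tlr9. Among panel genes averaging under 100 normalized counts, 87 of 105 had a log2 fold change above 0 (median 0.19), against 90 of 143 of the more abundant genes (median 0.03). Of the 29 other genes between Tlr6 and Tlr9 in level, 23 were above 0 (median 0.17), beside 4 of 4 for the lowest members (median 0.27). Counting alone gives a coefficient of variation of 12 to 21.3% at these counts; for example the 38 Tlr7 counts of tributyrin mouse 1 have an exact 95% Poisson interval of 26.9 to 52.2, which covers counting error only. The part of scaling and depth in these differences was not tested.

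**Figure D3:**
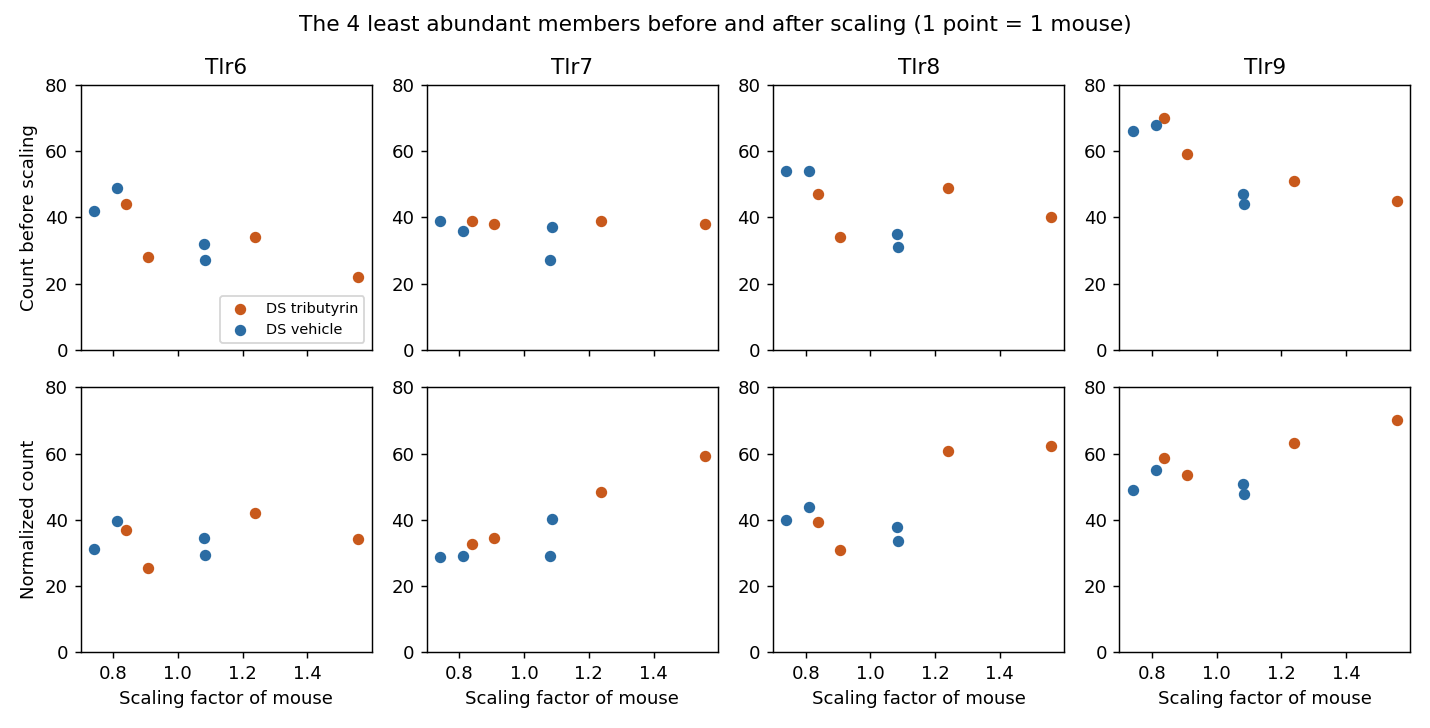
Counts before scaling (top) and normalized counts (bottom) of Tlr6, Tlr7, Tlr8 and Tlr9 against the scaling factor of each mouse, with tributyrin and vehicle mice in separate colours. Tlr7 counts are 38 or 39 in every tributyrin mouse before scaling, and its normalized counts of 48.3 and 59.2 are in the mice with factors of 1.24 and 1.56.

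**Figure D4:**
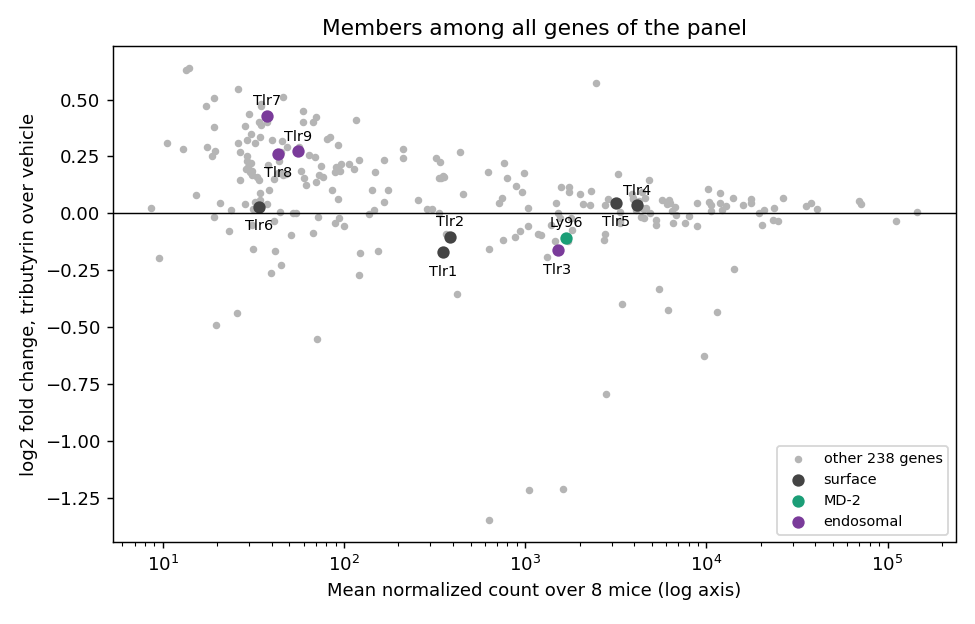
Log2 fold change, tributyrin over vehicle, against the mean normalized count over 8 mice (log axis) for the 248 genes, with the members in colour by class. Most genes at low counts lie above 0, as Tlr7, Tlr8 and Tlr9 do, and the members above 100 normalized counts lie between -0.17 and 0.05.

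Cell types that carry these receptors could be followed only by a part of their markers. Of 22 macrophage and monocyte markers 12 were measured, and their summed level was 22679 to 28555 normalized counts in tributyrin mice and 24149 to 28847 in vehicle mice, most of it Arg1. Without Arg1 the sum was 1397 to 2204 in tributyrin mice and 1361 to 1700 in vehicle mice. Over the panel, 177 of 248 genes had a log2 fold change above 0, 141 under quantile normalization and 136 without tributyrin mice 1 and 4. Of the 105 panel genes averaging under 100 normalized counts, 87 lay above 0 (median 0.19). Of the 12 markers, 10 had a log2 fold change above 0 (median 0.11), against 7 under quantile normalization and 6 without tributyrin mice 1 and 4. Tyrobp, a signalling partner of myeloid receptors, averaged 375 in tributyrin mice and 337 in vehicle mice. The largest log2 fold changes were 0.51 for Chi3l3 (limma adjusted p = 0.454) and 0.41 for Ccr2, the receptor that draws monocytes into tissue (adjusted p = 0.321), both named after their values were seen. The 5 of 12 dendritic cell markers measured summed to 799 to 1089 in tributyrin mice and 806 to 958 in vehicle mice, most of it H2-Eb1 (mean 839 in tributyrin mice, 749 in vehicle mice), with Cd86 next (66.1 in tributyrin mice, 69.7 in vehicle mice). Of these markers 4 lay above 0 (median 0.10), against 2 under quantile normalization. Ccr7, which guides mature dendritic cells to lymph nodes and was also named after its values were seen, had 20.3, 15.1, 13.6 and 19.8 in tributyrin mice 1 to 4, against 11.4, 10.8, 9.63 and 11.9 in vehicle mice 1 to 4, without overlap (log2 fold change 0.64, limma adjusted p = 0.0752). Over the panel, 18 of 248 genes (7.26%) did not overlap. Ccr7 ranked 243 of the 248 genes, and its 2 largest values were in tributyrin mice 1 and 4, which had the largest factors. The part of scaling and depth in this difference was not tested. The sums of 2 of 10 neutrophil markers (47.8 to 71.7 in tributyrin mice, 44.4 to 52.1 in vehicle mice) and of 5 of 10 T cell markers (131 to 171 in tributyrin mice, 111 to 135 in vehicle mice) consist of low counts, and all 7 of these markers lay above 0 (6 under quantile normalization). For eosinophils and mast cells 1 of 9 markers was measured (Ccr3, mean 16.3 in tributyrin mice, 23.0 in vehicle mice), for endothelium 1 of 6 (Flt1, mean 183 in tributyrin mice, 152 in vehicle mice), and none for B cells or fibroblasts. No measured gene was at 0 in any mouse, the lowest being at 5 counts before scaling. The part of cell numbers in the members' levels was not tested.

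Across the 8 mice, Ly96 and Tlr1 were each other's nearest gene among the 141 genes of at least 100 normalized counts compared (Pearson r = 0.97, Spearman rho = 0.90, and r = 0.95 for deviations from the group means). The genes most like Tlr5 were Rhoa, Mafk and Irf5 (r = 0.92, 0.92 and 0.91), and those most like Tlr2 were Smad7, Prkcb and Oasl1 (r = 0.87, 0.84 and 0.79). Tlr3 was most like Il1rap, Birc2 and Hif1a (r = 0.83, 0.79 and 0.78), though by rank Birc2 was less so (Spearman rho = 0.79, 0.38 and 0.90). Tlr4 was most like Il6ra, Tollip and Mafk (r = 0.77, 0.73 and 0.65). Genes of a mouse share 1 RNA sample and 1 scaling factor, and each r was picked as a maximum, so these are descriptions.

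None of the genes of the pathway lists passed the adjusted threshold. Of 8 listed co-receptors, binding partners and endogenous ligands 4 were measured, and Cd14, Lbp and Cd36 were not. All 4 lay above 0 (median log2 fold change 0.04, 3 of 4 after median centring or quantile normalization), among them Hmgb1, an alarmin (17900 ± 525 normalized counts in tributyrin mice, 17340 ± 561 in vehicle mice, SD, n = 4 each). All 9 measured of 23 adaptors and kinases lay above 0 (median 0.07, 8 of 9 after median centring). Over the whole panel, 177 of 248 genes lay above 0 (median 0.06), and 162 after median centring. Ripk2, a kinase of NOD signalling, averaged 3453 ± 321 in tributyrin mice and 3068 ± 395 in vehicle mice (SD, n = 4 each, limma adjusted p = 0.480), and Tollip, an inhibitor of Toll-like receptor signalling, 16062 in tributyrin mice and 15649 in vehicle mice. Of the MAP kinases 7 of 9 lay above 0 (median 0.05).

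Among 11 of 15 transcription factors measured, 6 lay above and 5 below 0 (9 and 2 under quantile normalization), and 3 passed an unadjusted p of 0.05, beside 12.5% of all genes. Irf7, the interferon regulatory factor that acts below TLR7 and TLR9, had 5019, 4731, 4922 and 4782 normalized counts in tributyrin mice 1 to 4, against 6690, 6223, 5837 and 5822 in vehicle mice 1 to 4. The groups did not overlap (log2 fold change -0.33, limma adjusted p = 0.0516), as was so for 18 of 248 panel genes (7.26%). Irf7 was named as the gene with the smallest p of this list. Over the alternatives its adjusted p was 0.00644 to 0.394, under the threshold in 6. Irf3, which acts below TLR3 and TLR4, averaged 351 ± 17.9 in tributyrin mice and 315 ± 19.2 in vehicle mice (SD, n = 4 each, log2 fold change 0.16, adjusted p = 0.372). Bcl6, a transcriptional repressor, averaged 1043 ± 9.03 in tributyrin mice and 924 ± 77.7 in vehicle mice (SD, n = 4 each, adjusted p = 0.366). Rela, the p65 subunit of NF-κB, averaged 7976 in tributyrin mice and 8029 in vehicle mice, and Fos, a subunit of AP-1, 9904 ± 3172 in tributyrin mice and 12957 ± 2105 in vehicle mice (SD, n = 4 each, adjusted p = 0.480).

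All 28 listed target genes were measured, of which 19 lay above and 9 below 0 (median 0.15), but under quantile normalization 9 lay above and 19 below (median -0.02). Tnf averaged 370 ± 59.0 normalized counts in tributyrin mice and 474 ± 86.2 in vehicle mice (SD, n = 4 each, log2 fold change -0.35, limma adjusted p = 0.454). Il12a, the p35 subunit of interleukin-12, had 24.9, 22.6, 20.9 and 18.6 in tributyrin mice 1 to 4, against 32.5, 28.2, 31.1 and 26.0 in vehicle mice 1 to 4, without overlap (log2 fold change -0.44, adjusted p = 0.116). These are low counts, at rank 230 of the 248 genes, of which 18 (7.26%) did not overlap. Il12b, the p40 subunit, averaged 31.6 in tributyrin mice and 27.1 in vehicle mice (adjusted p = 0.469). The cytosolic sensors Nod1, Nod2 and Nlrp3 had log2 fold changes of 0.02, 0.21 and 0.06, and Nod1 and Nlrp3 turned below 0 under quantile normalization.

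**Figure D5:**
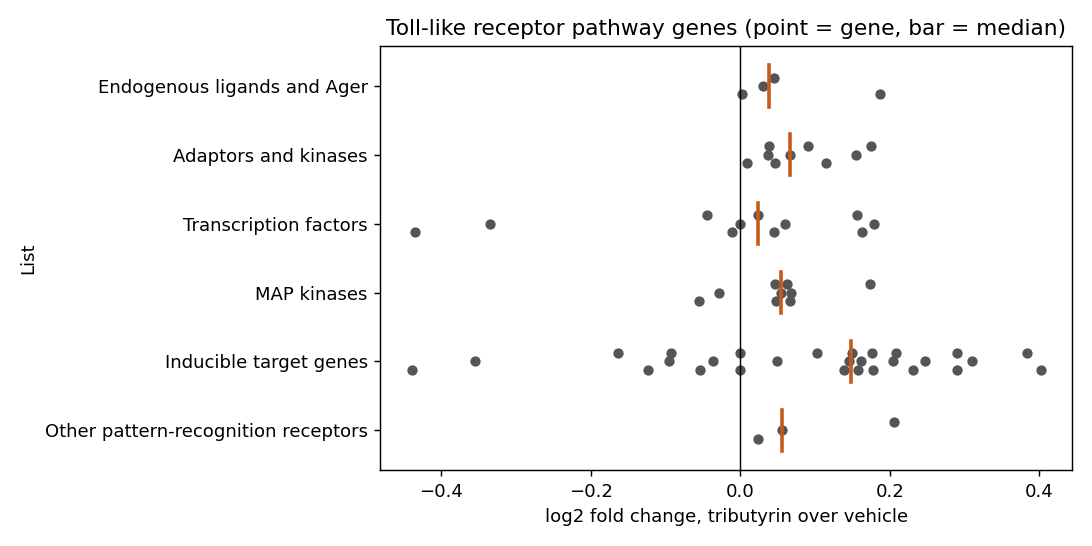
Log2 fold change, tributyrin over vehicle, of each measured gene in 6 lists of the Toll-like receptor pathway, with a bar at each list's median. Medians lie between 0.02 and 0.15, and Fos and Irf7 among the transcription factors and Il12a and Tnf among the target genes lie farthest below 0.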

How the data were processed

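RNA of 8 conjunctiva samples was counted with the Mouse Inflammation v2 panel of the nCounter platform. The authors scaled counts to the geometric mean of 6 reference genes, and the deposited values are log2 normalized counts, with a column for each mouse and 248 genes. The software version and any background correction are not given in the sources used here. Once the log was undone, 100% of the values of every mouse were whole multiples of a single unit (tolerance 0.001), which gave the scaling factor and the counts before scaling. A constant added or subtracted before scaling would not show.

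limma 3.58.1 (R 4.3.3; lmFit, eBayes without trend, group as the only term) was fitted to the log2 values, with no filter and Benjamini-Hochberg adjustment over 248 genes. It was first tested on simulated data. Intervals are 95%. No 2 mice had identical values. Figures used matplotlib 3.10.9 in Python 3.11.15. Gene IDs were matched to RefSeq GRCm38.p6 for names, neighbours and promoters (247 of 248).

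Named genes are the 10 members and, in each pathway list, the 3 genes with the smallest p and the 2 most abundant, in each marker list the 2 most abundant, and for members of at least 100 counts the 3 genes most like them; a gene not reported here was passed over, and some named by the rule are given only in counts. Members and lists were chosen with earlier results of these data known. Alternatives were a pseudocount of 10, filters at means of 20 and 100, median centring, quantile normalization, background subtraction, a variance trend, voom weights, the scaling factor as covariate, leaving out the 2 mice with the largest factors, an exact Mann-Whitney test and leaving out each mouse. Background subtraction took the 5% quantile of a mouse's own panel counts from each of its counts, with a floor of 1 count. It used no negative-control probes. Within-mouse ratios and the alternatives for marker lists were added after seeing the data.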

Additional observations from a re-analysis of the deposited data

Results flagged for a closer look

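Of 72 groups of 4 mice examined (a gene in 1 treatment group), 3 held a mouse far from the other 3 by Dixon's criterion, where chance gives about 3.6. Tlr7 in vehicle mouse 2 was at 5.33 on the log2 scale (40.1 normalized counts), and the other vehicle mice were at 4.85 to 4.87 (28.9 to 29.2). Hmgb1 in tributyrin mouse 1 was at 14.06 (17122 normalized counts), and the other tributyrin mice were at 14.14 to 14.16. Irf3 in tributyrin mouse 4 was at 8.34 (324 normalized counts), and the other tributyrin mice were at 8.48 to 8.50.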

How the results depend on the processing

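The order of the members and the shares held by surface and endosomal receptors stayed within the spread between mice in every alternative run on them. No member passed the adjusted threshold in any alternative, and the smallest member adjusted p was 0.154 (without tributyrin mouse 3) to 0.789. At an unadjusted p of 0.05, 4 members passed without tributyrin mouse 2 (Ly96, Tlr1, Tlr7 and Tlr9) and 2 without tributyrin mouse 3 (Tlr8 and Tlr9). Tlr7 passed in place of Tlr9 without vehicle mouse 2, and no member passed under quantile normalization, the variance trend, voom weights, the covariate, the exact Mann-Whitney test, the filter at a mean of 100, which removes Tlr9, or without the 2 mice with the largest factors. The count of panel genes past the adjusted threshold, 0 as reported, was 6 with a pseudocount of 10, with a mean of at least 20 and with median centring, and 7 with a mean of at least 100, a variance trend and voom weights. Leaving out each mouse gave 0 to 6 genes (4 without tributyrin mouse 3, 1 without vehicle mouse 1, 6 without vehicle mouse 4). The members' median log2 fold change of 0.03 was -0.11 at a mean of at least 100, -0.038 with background subtraction and -0.049 without the 2 mice with the largest factors, and -0.01 to 0.05 when leaving out each mouse. The endosomal median of 0.27 was -0.16 at a mean of at least 100, where Tlr3 is the only receptor left, 0.071 with quantile normalization, 0.045 without those 2 mice, and 0.16 to 0.40 when leaving out each mouse. Without the 2 mice, signs turned for Tlr5 (-0.010), Tlr6 (-0.13), Tlr8 (-0.15) and Tlr3 (0.00024). Quantile normalization turned Tlr4 (-0.0077), Tlr6 (-0.16), Rela (0.081), Mapkapk5 (-0.018), Mapkapk2 (0.042), Il18 (-0.029), Nod1 (-0.020) and Nlrp3 (-0.10). Background subtraction turned Tlr6 (-0.21), median centring Il18 (-0.019), and the covariate Tlr5 (-0.018), Tlr6 (-0.0015) and Il18 (-0.027). Leaving out each mouse gave -0.074 to 0.17 for Tlr6, -0.031 to 0.010 for Rela, -0.056 to 0.072 for Il18 and -0.065 to 0.19 for Nlrp3. Of 186 member values under alternatives 13 changed sign, and of 488 of pathway genes 17 changed sign and 6 came to pass, all Irf7. For these values the cause was not tested. No paired analysis was possible because no number in the labels is common to both groups. The 4 lowest members had 22 to 70 counts a mouse before scaling, and no detection limit was computed for them.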
